A study of Mus musculus with 2 samples.

Results

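7 genes, Mucl2, Esp15, Esp16, Csn3, Wfdc13, Sult1e1 and Chit1, were followed in cultured mouse glioma cells, out of 32285 genes in the count matrices. They were picked because their counts were highly variable among neurosphere cells or led a cluster of those cells, so their neurosphere counts are given as a description and support nothing on their own. The cells were GL261, a mouse glioma line, grown either adherently or as neurospheres, which are free-floating aggregates. Adherent cells were grown in medium with serum, and neurospheres were formed by adding 20 ng/ml EGF, 20 ng/ml FGF and the B-27 supplement to the culture medium and were collected on day 12. Per the labels both cultures were put in trypsin, but neurospheres alone were also broken up by passing them through ever finer pipette tips. Both were frozen in medium with DMSO before single-cell 3′ RNA sequencing. Each condition was 1 library of 1 cell line, so no difference between them has a replicate check, and the added factors, the growth form, the way of dispersal and the library cannot be told apart.

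After the cell filter, 5051 of 5764 adherent cells and 4276 of 4951 neurosphere cells were kept. They held 46290996 and 64943938 UMIs (unique molecular identifiers, 1 per captured transcript), with a median of 8260 UMIs per adherent cell and 13198.5 UMIs per neurosphere cell. The libraries shared 12 cell barcodes, of which 9 were kept in both. Levels are given as CPM, the sum of the UMIs of a gene in kept cells, scaled so that both libraries have the same total. Intervals are exact 95% intervals and cover counting error only.

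Exocrine glands such as the mammary, lacrimal and salivary glands release milk, tears and saliva through ducts, and their secretory cells devote much of their RNA to a few secreted proteins. Caseins are the main milk proteins, and Csn3 encodes kappa-casein, which stabilises casein micelles. Esp15 and Esp16 belong to the exocrine gland secreting peptides, a rodent family whose founding member is a pheromone in tears. Mucl2 encodes a mucin-like protein, Wfdc13 a small protein with the WAP domain found in protease inhibitors, and Chit1 chitotriosidase, a secreted chitinase best known from macrophages. Sult1e1 encodes estrogen sulfotransferase, a cytosolic enzyme that inactivates estrogens by sulfation, so the description of the 7 genes as secreted does not hold for it. The description of them as neurosphere genes does not hold for Wfdc13, which was lower in neurosphere cells than in adherent cells.

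The promoters of Esp15 and Esp16 are shown because this pair was found in the same cells at the highest ratio to the expected number among the 7 genes. Both sequences are the 250 bases before the RefSeq start site on the plus strand of GRCm38.p6, at chr17:39640707-39640956 for Esp15 and chr17:39535892-39536141 for Esp16. Capitals mark bases that differ or are inserted in their alignment.
Esp15: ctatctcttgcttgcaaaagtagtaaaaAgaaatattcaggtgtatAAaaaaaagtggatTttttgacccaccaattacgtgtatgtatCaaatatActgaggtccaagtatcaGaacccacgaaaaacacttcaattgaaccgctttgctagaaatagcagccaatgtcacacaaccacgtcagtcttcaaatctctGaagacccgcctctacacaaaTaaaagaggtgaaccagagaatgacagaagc
Esp16: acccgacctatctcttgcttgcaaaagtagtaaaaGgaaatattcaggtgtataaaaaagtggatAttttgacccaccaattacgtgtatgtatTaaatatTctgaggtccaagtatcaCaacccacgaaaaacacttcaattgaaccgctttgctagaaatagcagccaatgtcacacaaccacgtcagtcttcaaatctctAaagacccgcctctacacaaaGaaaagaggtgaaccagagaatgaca
Over 243 aligned bases, 236 were identical (97.1%). The transcripts were also close, with 1111 of 1159 aligned bases identical (95.9%) between the 1171 bases of Esp15 and the 1243 bases of Esp16. Of 1082 windows of 90 bases in Esp15, 31 (2.87%) were found unchanged in Esp16, so a 90-base read from those windows could not be assigned to either gene.

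The promoters of Mucl2, Sult1e1 and Chit1 are shown because the first of these genes had the most uneven counts among cells and because known motifs were matched in the others. Mucl2 is read on the minus strand at chr15:103899313-103899562, Sult1e1 on the minus strand at chr5:87591612-87591861 and Chit1 on the plus strand at chr1:134110992-134111241. Capitals mark motif matches.
Mucl2: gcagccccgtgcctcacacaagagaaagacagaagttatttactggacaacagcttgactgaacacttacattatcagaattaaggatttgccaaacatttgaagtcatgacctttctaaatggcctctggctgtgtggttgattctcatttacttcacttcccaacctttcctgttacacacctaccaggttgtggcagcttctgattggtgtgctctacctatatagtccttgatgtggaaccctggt
Sult1e1: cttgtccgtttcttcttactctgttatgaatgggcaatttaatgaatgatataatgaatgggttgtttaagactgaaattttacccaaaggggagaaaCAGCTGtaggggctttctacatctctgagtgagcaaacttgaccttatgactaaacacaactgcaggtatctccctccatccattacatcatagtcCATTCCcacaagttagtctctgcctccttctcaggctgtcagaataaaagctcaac
Chit1: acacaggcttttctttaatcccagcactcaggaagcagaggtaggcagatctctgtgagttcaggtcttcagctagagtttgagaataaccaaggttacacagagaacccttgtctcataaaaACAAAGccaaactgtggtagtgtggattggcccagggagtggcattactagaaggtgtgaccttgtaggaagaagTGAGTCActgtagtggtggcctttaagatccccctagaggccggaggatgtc
The table of promoters had entries for 5 of the 7 genes, and Csn3 and Wfdc13 were not among them. Motifs were searched on both strands in the 250 bases. The AP-1 motif TGANTCA was matched in Chit1 at 52 bases before the start, and 6.75% of 32851 promoters hold it. The SOX motif ACAAAG was matched in Esp16 and Chit1 (16.5% of promoters), the TATAAA motif in Esp15 and Esp16 at 207 and 200 bases before the start (12.4%), and the TEAD motif GGAATG and the E-box CAGCTG in Sult1e1 (12.6% and 13.0%). Neither the STAT5 motif TTCNNNGAA (7.02% of promoters) nor the glucocorticoid receptor motif ACANNNTGT (5.84%) was matched in the 5 windows. A match describes letters and is no evidence of binding.

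Mucl2, Esp15, Esp16 and Sult1e1 had 0 UMIs in the 5051 kept adherent cells, and a limit of 3 counts allows a share of up to 0.0594% of adherent cells with a UMI. In neurosphere cells, Sult1e1 had 5395 UMIs (83.1 CPM, interval 80.9 to 85.3), and 28.0% of cells (26.7 to 29.4) had at least 1. Mucl2 had 1504 UMIs (23.2 CPM, 22.0 to 24.4) in 100 cells (2.34%, 1.91 to 2.84). The genes thus had unlike distributions, with Sult1e1 spread over many cells and Mucl2 held by few. Esp15 had 949 UMIs (14.6 CPM, 13.7 to 15.6) in 199 cells (4.65%, 4.04 to 5.33). Esp16 had 1052 UMIs (16.2 CPM, 15.2 to 17.2) in 206 cells (4.82%, 4.20 to 5.50). Against a floor of 3 UMIs in the adherent library, Sult1e1 was at least 1282-fold higher, Mucl2 at least 357-fold, Esp16 at least 250-fold and Esp15 at least 225-fold higher in neurosphere cells.

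Csn3, Chit1 and Wfdc13 were found in both cultures. Csn3 went from 342 UMIs in 5.62% of adherent cells (7.39 CPM, 6.63 to 8.21) to 2300 UMIs in 16.02% of neurosphere cells (35.4 CPM, 34.0 to 36.9), a log2 ratio of 2.26 (2.10 to 2.43). Chit1 went from 163 UMIs in 2.45% of adherent cells (3.52 CPM, 3.0 to 4.11) to 884 UMIs in 5.19% of neurosphere cells (13.6 CPM, 12.7 to 14.5), a log2 ratio of 1.95 (1.71 to 2.20). Wfdc13 had the opposite direction. It had 2623 UMIs in 34.1% of adherent cells (56.7 CPM, 54.5 to 58.9) and 811 UMIs in 12.3% of neurosphere cells (12.5 CPM, 11.6 to 13.4), a log2 ratio of -2.18 (-2.30 to -2.07).

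By more than 2-fold, 6 of the 7 genes were higher in neurosphere cells, as were 21.7% of 14654 genes. The 1 gene that was over 2-fold lower stood beside 11.7% of all genes, and the median log2 ratio of all genes was 0.32. Since the genes were picked on neurosphere counts, nothing is read from the 6. With TMM scaling every log2 ratio moved by -0.22 and the median of all genes became 0.11, and the directions of the 7 genes stayed as given. Among 8190 genes with at least 811 neurosphere UMIs, the count of Wfdc13, 9 genes (0.11%) had 0 UMIs in adherent cells. Besides the 4 genes above these were Matn1, Omg, Vmn1r34, Rasl12 and Gm34609, which were named after their values were seen.

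**Figure D1:**
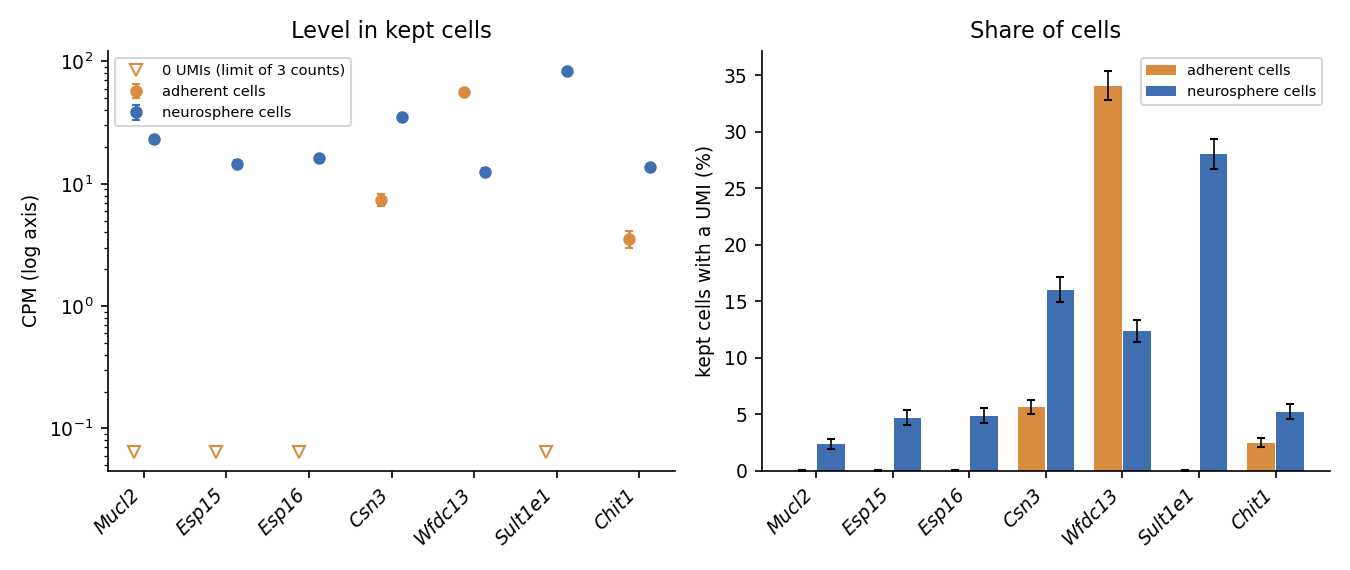
Levels in CPM on a log axis (left) and the share of kept cells with at least 1 UMI in percent (right) for the 7 genes in adherent (orange) and neurosphere (blue) cells, with exact 95% intervals for counting error and open triangles at the limit of 3 counts where a library had 0 UMIs. Wfdc13, with an adherent level of 56.7 CPM and a neurosphere level of 12.5 CPM, is the gene of the 7 that lies lower in neurosphere cells.

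Neurosphere cells were sequenced more deeply than adherent cells, and positive cells were deeper than negative ones for each of the 7 genes. For Csn3 the median depth was 18104 UMIs in cells with a UMI and 12372 UMIs in cells without. With each cell thinned to 5000 UMIs (4464 adherent and 4196 neurosphere cells), the adherent and neurosphere shares were 3.49% and 8.29% for Csn3, 1.59% and 3.10% for Chit1, and 22.4% and 5.39% for Wfdc13. The thinned neurosphere shares were 18.04% for Sult1e1, 2.93% for Esp16, 2.81% for Esp15 and 1.48% for Mucl2. The order of the cultures was thus kept at equal depth for the 3 genes found in both. No cell type that should lack these genes was at hand for a background from free RNA. The lowest share in any neurosphere cluster described below was 0% for Esp16, 0.246% for Mucl2 and Chit1, 0.450% for Esp15, 1.48% for Csn3, 4.05% for Wfdc13 and 8.45% for Sult1e1.

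The UMIs of Mucl2 were held by very few cells. Of the 100 positive neurosphere cells, 49 had 1 UMI, while 28 had at least 10 and held 90.4% of its UMIs. 7 cells held at least 50% of them. The 5 highest cells had 171, 152, 110, 101 and 93 UMIs, and in the cell with 152 the gene made up 2.97% of all UMIs. The 2 highest of these cells were not deep, as they held 6216 and 5115 UMIs in all, under the library's median. Mucl2 had the highest standardized variance of all genes in neurosphere cells (rank 1).

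The other genes were less uneven. The 1% of neurosphere cells with most UMIs of a gene held 95.4% of the UMIs of Mucl2, 66.7% for Esp15, 64.5% for Esp16, 63.6% for Chit1, 35.6% for Csn3, 24.2% for Wfdc13 and 21.8% for Sult1e1. Over the same 8190 genes the median was 7.35%, and 10 genes (0.122%) were over 50%. Besides Mucl2, Esp15, Esp16 and Chit1 these were Lcn2, Ccl2, Cxcl10, Hes5, Krt18 and Enpp2, named after their values were seen. All 7 genes were among the 104 (1.27%) over 20%, and nothing is read from this since the genes were picked for their variability.

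Single cells reached 95 UMIs for Csn3, 78 for Sult1e1, 66 for Chit1, 65 for Esp16 and 58 for Esp15. At least 10 UMIs were found in 141 cells for Sult1e1, 41 for Csn3, 26 for Esp16, 24 for Esp15 and 18 for Chit1. Wfdc13 differed, with at most 9 UMIs in a neurosphere cell and 1.54 UMIs per positive cell, close to the 1.52 UMIs per positive cell in adherent cells. In adherent cells the highest counts were 6 UMIs for Csn3 and 4 for Chit1, so the cells with at least 10 UMIs of these genes were all from neurospheres. A cell with at least 10 UMIs was found for 4066 (49.6%) of the 8190 genes. Those genes have no upper limit of UMIs and include far more abundant ones, so nothing is read from reaching that count.

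**Figure D2:**
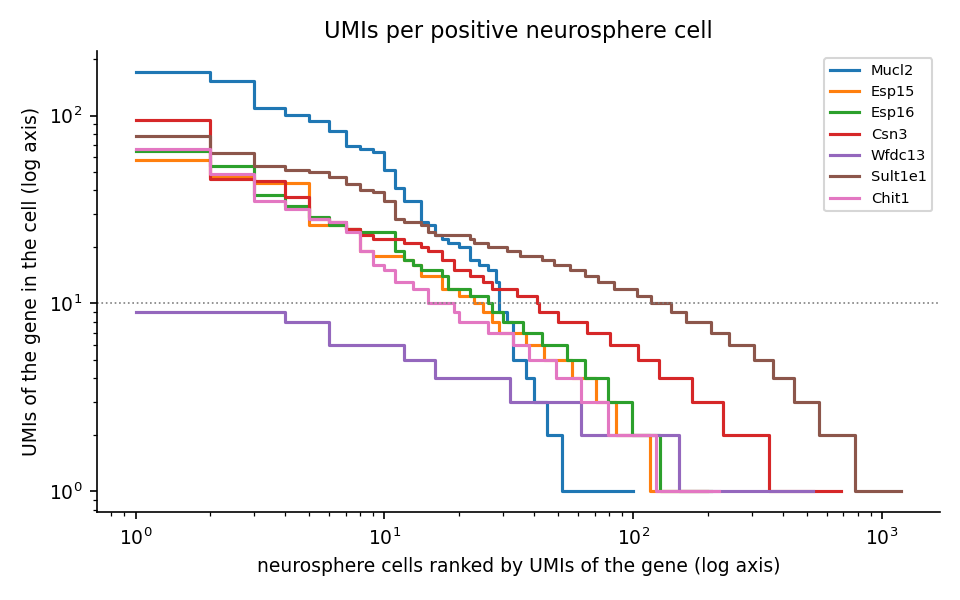
UMIs of each of the 7 genes in the neurosphere cells that had any, ranked from the highest cell, with both axes on a log scale and a dotted line at 10 UMIs. Mucl2 starts at 171 UMIs and falls to 1 UMI within 100 cells, Sult1e1 runs over 1198 cells, and Wfdc13 stays at or below 9 UMIs.

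At least 1 UMI of any of the 7 genes was found in 2094 of 4276 neurosphere cells (49.0%, 47.5 to 50.5) and in 1917 of 5051 adherent cells (37.95%, 36.6 to 39.3). Wfdc13 made up most of the adherent value, and without it the shares were 44.6% of neurosphere and 7.76% of adherent cells. With cells thinned to 5000 UMIs, the shares for all 7 genes were 33.4% and 25.9%, and without Wfdc13 they were 30.3% and 4.95%. In neurosphere cells, 1344 cells had UMIs of 1 of the genes, 532 of 2, 158 of 3, 47 of 4, 10 of 5 and 3 of 6, and no cell had all 7. At 10 or more UMIs, 249 cells were high for 1 gene, 8 for 2, 3 for 3 and 1 for 4. The pair most often high together was Esp15 and Esp16, in 6 cells.

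Co-expression was described by the number of cells with UMIs of both genes over the number expected if the genes were independent among cells of like depth. Cells of 1 library are not replicates, so no test was made. Esp15 and Esp16 were found together in 79 cells against 10.3 expected, a ratio of 7.66 (6.06 to 9.55), or 39.7% of Esp15 and 38.3% of Esp16 cells. Their transcripts are close in sequence, and the part of read assignment in this was not tested. Among the 44 cells with at least 10 UMIs of either gene, 27 had UMIs of both, 7 of Esp15 alone and 10 of Esp16 alone. Over all 79 cells with both, Esp15 made up between 6.25% and 95% of the UMIs of both genes, so the ratio of the genes was not fixed among cells.

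Mucl2 was found with Chit1 in 29 cells against 5.46 expected, a ratio of 5.32 (3.56 to 7.63). Its ratio was 3.66 (2.20 to 5.71) with Esp16 and 2.91 (1.59 to 4.89) with Esp15. Chit1 also had ratios of 2.96 (2.39 to 3.63) with Wfdc13, 2.36 (1.91 to 2.88) with Csn3 and 2.22 (1.44 to 3.28) with Esp16. These and the Esp15 and Esp16 pair are the 7 of 21 pairs over 2. Among 17477571 pairs of genes found in as many cells as the 7, 0.245% were over 2, and among the 175838 such pairs of the 2000 most variable genes 2.01% were. As the 7 genes were picked on these same cells, and Esp15 and Esp16 share sequence, nothing is read from the 7 pairs beyond this. Csn3 and Wfdc13 were found together in 182 cells against 107 expected, a ratio of 1.69 (1.46 to 1.96).

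Sult1e1, found in the most cells, was near independence from most of the others. Its ratio was 1.73 (1.42 to 2.09) with Esp16 and 1.47 (1.18 to 1.82) with Esp15, while the intervals included 1 with Mucl2 (1.24), Csn3 (1.07), Wfdc13 (0.954) and Chit1 (0.898). For Sult1e1 and Csn3, which both lie on chromosome 5, the 238 cells with both stood against 222 expected. A link to their position was not tested. In adherent cells, which the choice of the genes did not use, Csn3 and Chit1 had a ratio of 1.93 (1.10 to 3.14), Csn3 and Wfdc13 of 1.29 (1.08 to 1.51), and Wfdc13 and Chit1 of 1.19 (0.909 to 1.53).

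**Figure D3:**
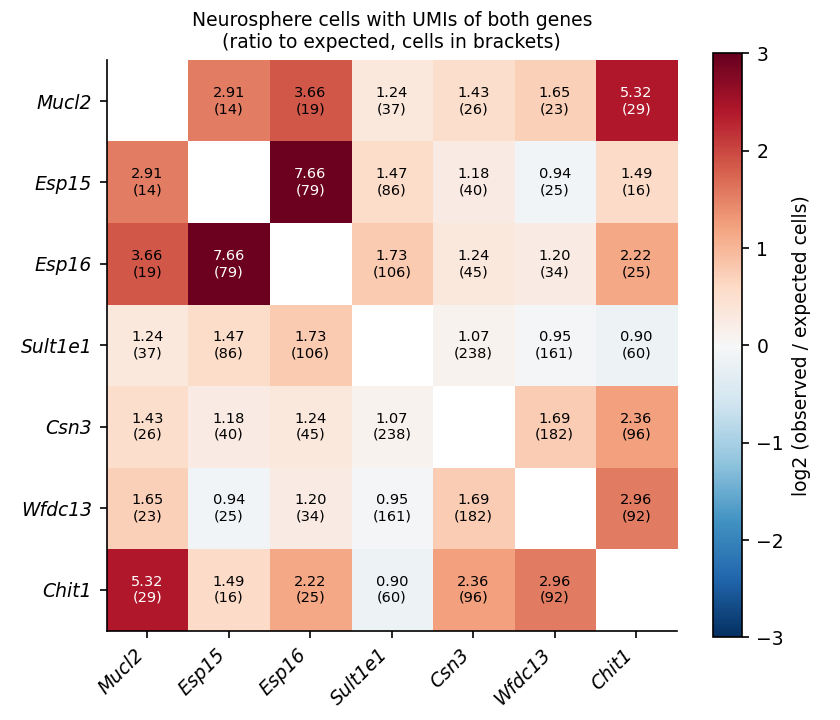
Neurosphere cells with UMIs of both genes over the number expected within 10 groups of cells by depth, for the 21 pairs, with the number of cells in brackets and the colour showing the log2 of the ratio. The highest ratios are 7.66 for Esp15 with Esp16 and 5.32 for Mucl2 with Chit1, and the pairs with Sult1e1 lie between 0.898 and 1.73.

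Neurosphere cells were clustered without the 7 genes into 11 clusters, numbered from 0. Clusters are described by their leading genes and are not tested against each other. Chit1 was concentrated in cluster 7, led by Cyp4f18, Cldn4, Abi3bp, Mt3 and Insc, which held 285 cells, 58.7% of the Chit1 UMIs and 14 of the 18 cells with at least 10. Chit1 was found in 31.2% of the cells of cluster 7 (129 CPM) and in 0.246% of those of cluster 5 (0.269 CPM), which was led by the myelin genes Mag and Mbp among others. Wfdc13 was also highest in cluster 7, at 46.7 CPM and 35.4% of cells.

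Mucl2, Esp15 and Esp16 had their highest CPM in cluster 1, of 575 cells with a low median depth of 7623 UMIs, led by Loxhd1, Comp, Ism1, Wdr49 and Hrh3. It held 43.8% of the Mucl2 UMIs (134 CPM), 32.9% of those of Esp15 (63.7 CPM) and 27.7% of those of Esp16 (59.4 CPM). The share of its cells with a UMI was 9.22% for Esp15, 9.04% for Esp16 and 3.48% for Mucl2. Most cells of the cluster thus had no UMI of these genes. Positive cells were also found elsewhere, since Mucl2 was found in 6.67% of the cells of cluster 7 and 6.25% of those of cluster 9, and Esp16 in 8.77% of those of cluster 7. Of the 28 cells with at least 10 UMIs of Mucl2, 8 were in cluster 1 and 8 in cluster 7.

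Csn3 was highest in cluster 8 (175 CPM, 32.9% of cells), led by Notum, Ccl20, Nppc, Cp and Hsf4, where Esp16 had 0 UMIs in 222 cells. It was found in 44.9% of the deeper cells of cluster 6 (median 23061 UMIs). Sult1e1 was the most even of the 7, from 17.2 CPM in cluster 10 to 153 CPM in cluster 3, which was led by Slit2. Cluster 5 had low levels of most of the genes, with 1.48% of cells for Csn3 and 13.5% for Sult1e1.

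**Figure D4:**
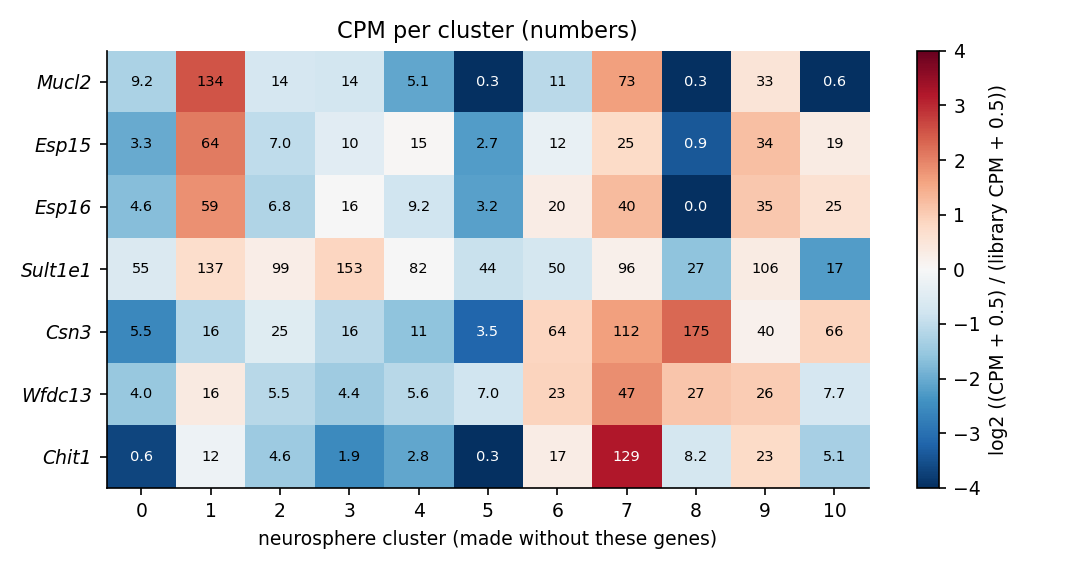
CPM of each of the 7 genes (numbers) in the 11 neurosphere clusters made without them, coloured by the log2 ratio to the gene's level in the whole library with 0.5 CPM added to both. Chit1 stands out in cluster 7 at 129 CPM, Csn3 in cluster 8 at 175 CPM, and Mucl2 in cluster 1 at 134 CPM.

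The genes most like each of the 7 were taken by the Pearson correlation of log-normalized counts over 4276 neurosphere cells, among 13618 genes. All correlations were low, and the points share 1 library and its depth. Chit1 was most like S100a6 (r = 0.36), Cpe (0.32) and Cstb (0.29). S100a6, a calcium-binding protein, was at 4134 CPM in cells with Chit1 and 540 CPM in cells without. S100a6 was also first for Csn3 (0.31) and Wfdc13 (0.29), and Lgals3, a galectin, was among the 5 most like genes of all 3. In the libraries as a whole S100a6 went the other way from Chit1 and Csn3, from 7353 CPM in the adherent library to 753 CPM in the other.

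Esp15 and Esp16 were most like each other (0.47), followed for both by Krt8, a simple-epithelial keratin, and Cstb, an inhibitor of cathepsins. Krt8 was at 6174 CPM in cells with Esp15 and 2853 CPM in cells without. Mucl2 was most like Chit1 (0.24), Lrp11 (0.19) and Sorcs2 (0.18). Sult1e1 was most like Dnajc1 (0.27), Col9a1 (0.21) and Grasp (0.20), and none of its 5 most like genes was among the 5 of another of the 7. Over 2-fold higher in cells with a UMI than in cells without, among 9439 genes, were 127 genes for Chit1 (1.35%), 54 for Mucl2 (0.572%), 48 for Csn3 (0.509%), 41 for Wfdc13 (0.434%), 25 for Esp15 (0.265%), 24 for Esp16 (0.254%) and 5 for Sult1e1 (0.053%).

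Secretory cells of glands are epithelial, so 14 epithelial markers were set beside the 7 genes. The 4 with at least 50 UMIs were each more than 2-fold higher in the neurosphere library (21.7% of all genes), but Krt18 and Cldn4 reached 50 UMIs through that library alone, so nothing is read from the count. The values went, for Krt8, from 3.93 to 3025 CPM, for Krt18 from 0.108 to 26.1 CPM, for Epcam from 21.6 to 123 CPM and for Cldn4 from 0 to 104 UMIs. The basal keratins Krt5, Krt14 and Krt15 had 0 UMIs in both cultures, as did Cldn3. Cdh1, E-cadherin, had 12 adherent and 20 neurosphere UMIs. The epithelial splicing regulators Esrp1 (16 and 9 UMIs) and Esrp2 (25 and 12 UMIs) had fewer in neurosphere cells, and Krt7 (3 and 1), Krt19 (0 and 1) and Cldn7 (0 and 5) were near 0. Within neurosphere cells, Krt8 was higher in cells with a UMI than in cells without for each of the 7 genes, with log2 ratios from 0.48 for Sult1e1 to 1.51 for Chit1. Of the 206240 neurosphere UMIs of the list, 196433 were of Krt8, so its sum stands for that gene. The list summed to 8890 CPM in cluster 7 and 7583 CPM in cluster 1, the clusters highest for Chit1 and Mucl2, and to 255 CPM in cluster 8, the cluster highest for Csn3.

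Other genes of the same families are counted beside the 21.7% of all genes that were over 2-fold higher and the 11.7% that were lower. The 7 genes are in these counts, and their own calls are not independent of how they were picked. Of 15 Esp genes, 2 had at least 50 UMIs over both libraries, Esp15 and Esp16 themselves. 6 had 0 UMIs in both, and Esp18 had 22 neurosphere UMIs. Of the mucin-like and casein list, 3 of 16 genes were measured and were over 2-fold higher, namely Mucl2 and Csn3 themselves and Csn1s2b, a calcium-sensitive casein with 0 adherent and 56 neurosphere UMIs that passed the minimum through neurosphere cells alone. The main milk caseins were near 0, with 2 and 7 UMIs for Csn1s1 and 0 and 2 for Csn2.

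All 7 measured genes of 23 in the WAP domain list were over 2-fold lower in neurosphere cells, beside 11.7% of all genes, with a median log2 ratio of -2.86. Besides Wfdc13 these included Wfdc1 (1010 to 25 UMIs), Wfdc12 (204 to 2 UMIs) and Slpi, a secreted leukocyte protease inhibitor (307 to 30 UMIs). Wfdc1, Wfdc8, Wfdc12, Slpi and Spint4 passed the minimum of UMIs through adherent cells alone, so nothing is read from the count or the median. Besides Wfdc13, the gene that passed it in both libraries was Wfdc3 (495 to 269 UMIs, a log2 ratio of -1.37). Of 4 measured sulfotransferases, Sult1e1 itself and Sult6b1 were over 2-fold higher (21.7% of all genes) and Sult2b1 and Sult5a1 over 2-fold lower. Sult1e1 and Sult6b1 passed the minimum of UMIs through neurosphere cells alone, and Sult5a1 through adherent cells alone. Nothing is read from these counts. Of 4 measured chitinase genes, Chit1 itself was over 2-fold higher, and the lysosomal Ctbs had a log2 ratio of 0.14, Chid1 of 0.12 and Ovgp1 of -0.66.

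Milk, tear and saliva proteins outside these families had 5 of 22 genes measured, with 1 over 2-fold higher and 2 lower, where 21.7% and 11.7% of all genes were. Wap, Lalba, Glycam1 and Ltf, which mark lactating gland, had 0 UMIs in both cultures. Of 15 measured gland regulators of 24, 2 were over 2-fold higher and 1 lower, shares no larger than those of all genes, with a median log2 ratio of 0.22 beside 0.32 for all genes. Foxa1 went from 27 to 221 UMIs, and Stat5b, which acts below the prolactin receptor, from 397 to 1228 UMIs. Elf5, a regulator of alveolar gland cells, had 4 and 3 UMIs, and the prolactin receptor Prlr 76 and 88 UMIs.

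Markers of other cell types were set beside the genes. Of 9 immune genes, Adgre1 and Tyrobp had 0 UMIs in both cultures, Ptprc had 1 adherent and 0 neurosphere UMIs, and Aif1 had 2 and 0. Cd68 had 485 and 276 UMIs, Cd14 206 and 334, Cx3cr1 103 and 96, Fcer1g 13 and 33, and Csf1r 5 and 19. The 9 genes summed to 815 adherent and 758 neurosphere UMIs, with 3 measured and 1 over 2-fold lower. Of all genes, 21.7% were over 2-fold higher and 11.7% lower. Oligodendrocyte genes were mostly higher in neurosphere cells (8 of 11 over 2-fold, 1 lower), as were cartilage genes (9 of 12, 1 lower). Of the genes called higher, Mog, Gpr17, Matn1, Comp and Hapln1 passed the minimum of UMIs for the lists through neurosphere cells alone. Nothing is read from their calls, while the other genes called higher in these lists passed the minimum in both libraries. Of 9 astrocyte and neural stem cell genes, 1 was over 2-fold higher and 2 lower. Among phase genes, 4 of 10 for G1/S were over 2-fold higher, and 0 of 10 for G2/M were higher or lower. The myelin gene Mbp was lower in cells with a UMI than in cells without for each of the 7 genes. Its log2 ratios ran from -0.78 for Esp15 and Esp16 to -2.02 for Csn3. Those of Mog, another myelin gene, ran from -0.20 for Csn3 to 0.63 for Mucl2. The part of these in the counts of the 7 genes was not tested.

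Sult1e1 and Csn3 lie 334 kb apart on chromosome 5 (GRCm38), Sult1e1 at chr5:87575969-87591594 on the minus strand with 8 exons and Csn3 at chr5:87925579-87932665 on the plus strand. The 8 genes of the count matrices between them include the other caseins. Of the 8, Csn1s2b had 56 neurosphere UMIs and the others at most 7, while Sult1d1, on the other side of Sult1e1, had 35. The interval between Sult1e1 and Csn3 thus held low counts in both cultures. The antisense gene 1700066N21Rik overlaps Csn3 and had 4 adherent and 0 neurosphere UMIs.

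**Figure D5:**
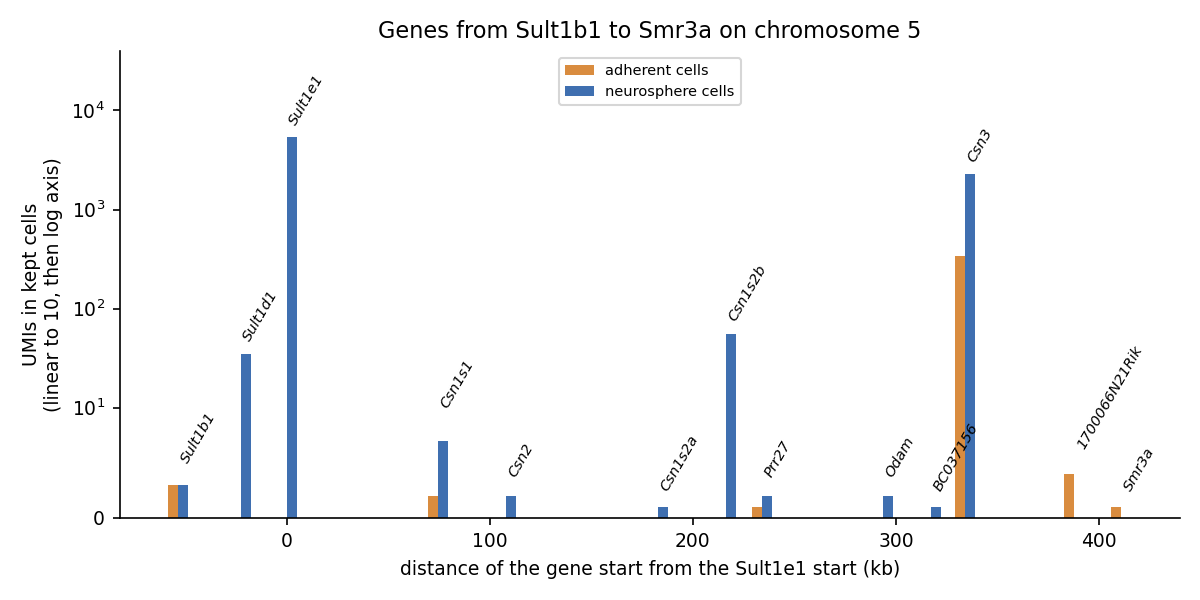
UMIs in kept adherent (orange) and neurosphere (blue) cells for the genes around Sult1e1 and Csn3 by the distance of each gene start from the Sult1e1 start in kb, on an axis that is linear to 10 UMIs and log above. Sult1e1 (5395 neurosphere UMIs) and Csn3 (2300) stand above the genes between them, of which Csn1s2b, at 56, is the highest.

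The other genes lay apart. Esp16 (chr17:39536142-39540847) and Esp15 (chr17:39640954-39645666) have 3 exons each on the plus strand, with 100 kb and no gene of the count matrices between them. Mucl2 (chr15:103895855-103899312, minus strand) lies 140 kb from Mucl1, which had 0 adherent and 6 neurosphere UMIs. Chit1 (chr1:134111242-134151540, plus strand) has its relative Chil1 at 70.9 kb, with 0 and 8 UMIs. On the other side of Chit1 lies Btg2, an antiproliferative gene outside the family, with 1480 adherent and 11986 neurosphere UMIs. Wfdc13 (chr2:164685107-164687706, plus strand) has 2 exons and lies in a row of relatives. Of these, Wfdc8 (213 and 44 UMIs), Spint4 (57 and 11) and Wfdc3 (495 and 269) were lower in neurosphere cells like Wfdc13, while Wfdc10 had 1 adherent and 33 neurosphere UMIs.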

How the data were processed

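Single-cell 3′ RNA sequencing was analysed for 1 adherent and 1 neurosphere library of GL261 cells. The authors deposited raw UMI counts per gene and cell for the cells that Cell Ranger called. The submitters' processing notes name Cell Ranger 7.0.1 and mm10, while the annotation and the treatment of intronic reads are not given in the sources used here. Mitochondrial (13) and ribosomal (101) genes were removed, and then cells under 1000 UMIs or under 1250 (adherent) or 2250 (neurosphere) genes. Doublets were not called, and instead cells over the 95th percentile of UMIs were left out as an alternative.

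Levels are CPM of UMIs summed over kept cells. No test was made, as each condition had a single library, and intervals (conditional for ratios, Poisson for CPM and observed over expected, binomial for shares) cover counting error only. The floor for 0 UMIs was 3 counts. Lists were counted over genes that reached 50 UMIs in the libraries together. Expected numbers of cells with both genes were summed over 10 groups of cells of like depth. Clusters came from Seurat 5.3.0 (2000 variable genes without the 7 genes, 18 PCs, resolution 1). Promoter sequences are from RefSeq (GRCm38.p6), and positions, transcripts and neighbours from GENCODE on GRCm38. TMM scaling used edgeR 4.0.16 (R 4.3.3), and the rest Python 3.11.15 with numpy 2.4.6, scipy 1.17.1 and pandas 2.3.3. The interval code was tested on simulated data.

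The 7 genes and all lists were chosen with earlier results of these data known. Named besides the 7 were the 5 most correlated genes of each (among genes in at least 1% of neurosphere cells), listed genes with at least 50 UMIs and the defining markers at or near 0, relatives of the 7, and leading genes of the clusters where a gene was highest. The leading genes of cluster 5 were named after the values were seen, and the pairs in adherent cells, the shares without Wfdc13 and the share over all gene pairs were added then too. That last share covers pairs of genes found in 100 to 1198 cells with an expected number of at least 4.81 cells.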

Additional observations from a re-analysis of the deposited data

Results flagged for a closer look

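Barcodes that the cell filter left out of the report held UMIs of genes that were at 0 in adherent cells. In 675 such neurosphere barcodes with 574706 UMIs, Esp15 was at 67.9 CPM (39 UMIs in 12 barcodes, interval 48.3 to 92.8), Sult1e1 at 62.6 CPM (36 UMIs in 18 barcodes, 43.9 to 86.7) and Esp16 at 53.9 CPM (31 UMIs in 7 barcodes, 36.7 to 76.6). In the 713 adherent barcodes left out, with 392008 UMIs, all 3 genes had 0 UMIs, for which a limit of 3 counts allows up to 7.65 CPM. The UMIs were unevenly held, with up to 21 UMIs of Esp16 and 12 UMIs of Esp15 in 1 barcode. Mucl2 had 5 UMIs in 4 of the neurosphere barcodes.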

How the results depend on the processing

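By more than 2-fold, 6 of the 7 genes were higher in neurosphere cells under each alternative run, and Wfdc13 was lower, at log2 ratios from -2.40 to -1.96. The share of neurosphere cells with a UMI of any of the genes (49.0%) was 43.5% over all called cells, 47.4% without cells over the 95th percentile of UMIs, 33.4% with cells thinned to 5000 UMIs and 31.0% where a cell needed 2 UMIs of a gene. The share of the genes' UMIs in their top 1% of cells (42.6%) was 44.9% over all called cells and 48.4% after thinning. Pairs over 2 numbered 7 to 10 (over other gene pairs the share was taken with the settings of the report alone), and clusters 8 to 12. Ratios of observed to expected cells crossed 1 for 3 pairs. With 2 UMIs of each gene, Esp15 and Wfdc13 had 1.89 and Csn3 and Sult1e1 0.945. With the expected number taken over all kept cells, Esp15 and Wfdc13 had 1.02 and Wfdc13 and Sult1e1 1.09. The cause was not tested. With 2 UMIs of each gene the ratio also went from 2.91 to 7.22 for Mucl2 and Esp15, from 7.66 to 13.4 for Esp15 and Esp16, from 5.32 to 9.88 for Mucl2 and Chit1, from 1.49 to 2.62 for Esp15 and Chit1, and from 1.69 to 2.84 for Csn3 and Wfdc13. After thinning it was 5.80 for Mucl2 and Esp15, 6.54 for Mucl2 and Esp16 (from 3.66) and 12.2 for Esp15 and Esp16. The lower limits of the log2 ratio for genes at 0 in adherent cells fall with the UMIs counted, and after thinning were 9.31 for Sult1e1, 8.16 for Mucl2, 7.07 for Esp16 and 6.91 for Esp15, from 10.32, 8.48, 7.97 and 7.82. No paired analysis was possible because each condition has 1 library, and no library could be left out.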
